A study of Mus musculus with 12 samples.

Results

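The genes described here encode the machinery that copies chromosomal DNA: origin recognition and licensing factors, the replicative helicase, polymerases, the sliding clamp and its loader, and enzymes that supply deoxynucleotides. Of 44 gene names given for this machinery, 43 had at least 1 row of the array table annotated with that gene symbol alone, of 22180 genes measured in all. Rfc4 was the exception, because its only row was annotated with Rfc4 and Eif4a2 together. All 43 were tested, since no filter on low values was applied. The study placed CD8+ T cells, sorted negatively from spleens of C57BL/6 mice, in 4 groups of 3 arrays each for 6 h. The groups were anti-CD3 antibody with IFN-4a, anti-CD3 alone, PBS with IFN-4a, and PBS alone. Anti-CD3 engages the T cell receptor complex, PBS was the mock treatment, and IFN-4a is the type I interferon of the study. All cells came from the same strain and tissue, the labels name no engineered allele, and no source used here states the number of mice or the doses. The labels number the replicates without naming separate animals or cultures, so the spread that p-values rest on here may be technical.

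Before S phase, the origin recognition complex marks origins on DNA, and Cdc6 and Cdt1 load the ring of MCM proteins there, which is called licensing. Kinases then recruit Cdc45 and the GINS complex, which turn the ring into an active helicase. Polymerase alpha with primase starts each strand, and polymerases epsilon and delta extend it, held on DNA by the clamp PCNA. Resting T cells are quiescent and express many of these genes weakly. Stimulated T cells grow for many hours before they first divide, and E2F transcription factors drive many replication genes as cells approach S phase.

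Values are log values taken as log2 that the authors centred on each row's median over the 12 arrays, so 0 is a gene's own median and levels of different genes cannot be compared. The file's decimal steps still showed that 25 of the 43 genes had their 6 highest arrays at 8 or above before the centring. For the other 18, not all of those 6 arrays were read at 8 or above. They are classed as below 8 here, though some of their arrays may stand above it: Orc1, Orc4, Cdc6, Mcm3, Mcm10, Cdc45, Gins1, Gins2, Pola1, Pold1, Pole, Rfc3, Rfc5, Fen1, Lig1, Rrm2, Tyms and Tk1. By the same reading, all 5 measured markers of CD8+ T cells (Cd8a, Cd8b1, Cd3d, Cd3e and Cd3g) stood at 8 or above. Of 38 measured markers of other blood cells (granulocytes, erythroid cells and platelets, myeloid, NK, CD4+ T and B cells), only Ighm, an immunoglobulin gene of B cells, was read as standing there. The rest were classed as below 8 or could not be classed. The array medians lay between -0.0157 and 0.0165, arrays of the same group correlated at 0.734 or more across genes, and arrays of different groups at 0.538 or less.

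Sequence just upstream of annotated transcript starts of several of these genes holds the E2F motif, and it is shown because E2F factors are the best known regulators of this machinery. RefSeq promoter windows, from 250 bases before to 50 after a transcript start (build GRCm38.p6), were found for 36 of the 43 genes. The motif was searched as TTTCCCGC, TTTGGCGC, TTTCGCGC or TTTGCCGC on both strands. At least 1 match occurred in 15 of the 44 windows of these genes, 34.1%, against 2.26% of all 32851 windows. In 9 genes a match lay upstream of that start. These 8 upstream stretches of 100 bases run 5′ to 3′ on the gene's strand, with capitals on the matches. Only genes with an upstream match could be shown, and functional groups without such a gene gave none. Each other group first gave its matching gene with the largest change with anti-CD3 alone, before any group gave another. Those of Cdc6, Orc1, Mcm7 and Pola1 lie wholly and that of Orc3 partly inside the gene's annotated span. The start used there is not the gene's outermost. This holds for the start used for Mcm5 too, though its stretch lies outside the span.
Mcm5, chr8:75109312-75109411, plus strand: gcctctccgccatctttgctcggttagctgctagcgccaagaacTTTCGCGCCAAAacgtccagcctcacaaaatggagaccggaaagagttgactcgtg
Gins3, chr8:95633459-95633558, plus strand: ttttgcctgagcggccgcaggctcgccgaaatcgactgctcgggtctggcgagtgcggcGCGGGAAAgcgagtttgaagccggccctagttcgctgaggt
Pola1, chrX:93632240-93632339, minus strand: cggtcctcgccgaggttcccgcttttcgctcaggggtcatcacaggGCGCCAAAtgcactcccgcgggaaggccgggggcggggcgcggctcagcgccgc
Cdc6, chr11:98907967-98908066, plus strand: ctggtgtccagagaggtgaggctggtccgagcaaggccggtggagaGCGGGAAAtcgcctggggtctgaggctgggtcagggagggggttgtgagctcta
Orc3, chr4:34614943-34615042, minus strand: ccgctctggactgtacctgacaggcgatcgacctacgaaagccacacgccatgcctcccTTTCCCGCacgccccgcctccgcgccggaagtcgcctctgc
Rfc3, chr5:151651209-151651308, minus strand: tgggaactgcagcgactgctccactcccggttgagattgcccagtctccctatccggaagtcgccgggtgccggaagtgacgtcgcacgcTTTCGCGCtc
Mcm7, chr5:138171995-138172094, minus strand: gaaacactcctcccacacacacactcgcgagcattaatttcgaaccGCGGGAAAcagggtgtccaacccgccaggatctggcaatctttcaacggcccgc
Orc1, chr4:108579354-108579453, plus strand: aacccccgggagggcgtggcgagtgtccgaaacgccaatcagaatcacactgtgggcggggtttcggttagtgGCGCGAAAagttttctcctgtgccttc
Counted by gene, a match was present in 15 of the 36 genes whose promoter was available, 41.7%, against 2.6% of all 27025 genes. It was present in 2 of the 12 that rose with anti-CD3 alone, in 6 of the 7 that fell and in 7 of the 17 that were not called. The 2 that rose were Mcm5 and Pole2. A match is a run of letters and no evidence that a factor binds there. The CCAAT box occurred in 56.8% of the windows of these genes, against 37.4% of all windows. The interferon motif (GAAA, any pair of bases, then GAA) occurred in 4.55% of them, against 8.56% of all windows, and the genes holding it were Orc2 and Pold2.

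The comparison of anti-CD3 with PBS, without IFN-4a, asked how far the machinery had responded 6 h after stimulation. It had responded in part and in both directions. Pold2, Pole2, Orc2, Pcna, Orc6 and Mcm2 rose most, while Lig1, Cdt1, Mcm7 and Rpa1 fell most. No gene of the machinery changed by as much as 2-fold, and only 703 of all 22180 genes did. A gene was called changed at an adjusted p under 0.05 from limma's moderated test, with Benjamini-Hochberg adjustment over all 22180 genes. By that rule 12 of the 43 rose and 10 fell, 51.2% in all, where 31.8% of all genes were called (13.8% higher and 18% lower). Among genes at 8 or above before centring, 60% of 25 machinery genes and 67.6% of all 6553 such genes were called. The shares were 38.9% of the 18 machinery genes below 8 and 16.7% of the other 15627 genes, which were below 8 or could not be classed. Arrays of the groups did not overlap in 14 genes on the higher and 13 on the lower side, of the 43, where 41.2% of all genes did not overlap (16.7% higher and 24.5% lower). The median change was 0.026 over the machinery and -0.036 over all genes on the log2 scale. In RNA of whole cell populations, fewer expressing cells and less RNA per cell cannot be told apart.

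**Figure D1:**
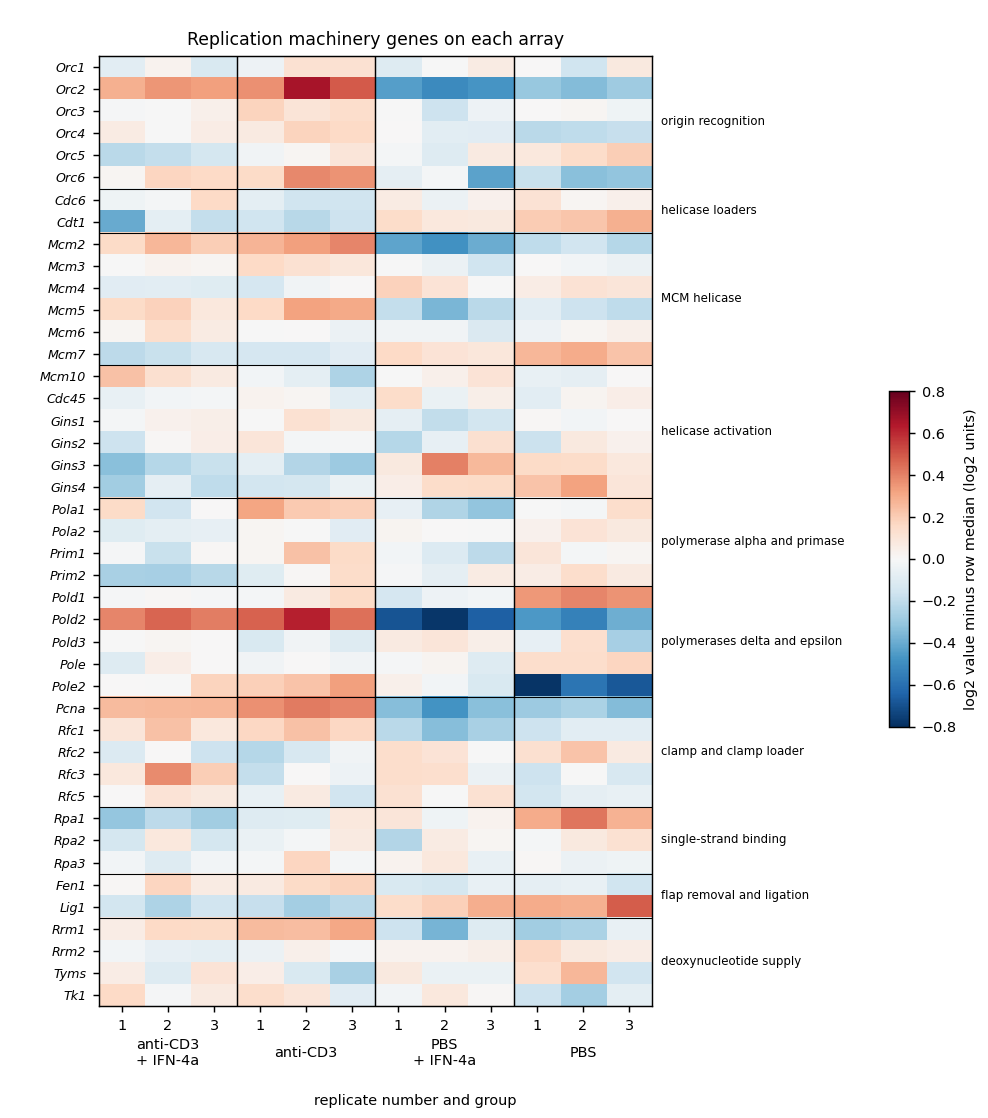
Heat map of the log2 value minus row median of the 43 genes (rows, grouped by function) on each of the 12 arrays (columns, 3 per group). Red rows on the 6 anti-CD3 arrays, such as Orc2, Pold2 and Pcna, stand beside blue ones, such as Lig1 and Cdt1, and Pole2 is lowest with PBS alone.

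Among the 6 subunit genes of the origin recognition complex, 3 rose and none fell, where 13.8% of all genes rose and 18% fell. Orc2 read 0.28, 0.35 and 0.33 on the 3 arrays of anti-CD3 with IFN-4a, 0.36, 0.66 and 0.49 with anti-CD3, -0.44, -0.51 and -0.47 with PBS and IFN-4a, and -0.30, -0.35 and -0.28 with PBS. Every anti-CD3 array lay above every PBS array. The difference without IFN-4a was 0.82 on the log2 scale (1.76-fold, SE 0.067, adjusted p = 3.53e-07). Orc6, the smallest subunit, read 0.019, 0.17 and 0.16 with anti-CD3 and IFN-4a, 0.16, 0.39 and 0.36 with anti-CD3, -0.075, -0.019 and -0.43 with PBS and IFN-4a, and -0.18, -0.33 and -0.31 with PBS. It rose by 0.58 (adjusted p = 0.000404). Orc4 rose by 0.34 (adjusted p = 0.000132). Orc1, a subunit known to vary over the cell cycle, was not called at 0.092 (95% interval -0.070 to 0.25), nor were Orc3 at 0.15 and Orc5 at -0.11.

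Both genes for the loaders of the MCM ring were lower, as were 18% of all genes. Cdt1, whose protein brings the ring to origins, read -0.40, -0.076 and -0.19 with anti-CD3 and IFN-4a, -0.16, -0.22 and -0.17 with anti-CD3, 0.15, 0.085 and 0.076 with PBS and IFN-4a, and 0.21, 0.22 and 0.28 with PBS. All anti-CD3 arrays lay below all PBS arrays, with a change of -0.42 (SE 0.072, adjusted p = 0.000358). Cdc6, the ATPase that works beside Cdt1, read -0.034, -0.019 and 0.16 with anti-CD3 and IFN-4a, -0.076, -0.16 and -0.16 with anti-CD3, 0.066, -0.046 and 0.034 with PBS and IFN-4a, and 0.12, 0.019 and 0.043 with PBS. Its change of -0.19 (adjusted p = 0.0328) lost its call under quantile normalization and without the second or the third anti-CD3 array or the first or the third PBS array, with adjusted p up to 0.114.

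The 6 genes of the MCM ring, whose proteins act as a single complex, did not move together. Mcm2 read 0.15, 0.27 and 0.20 with anti-CD3 and IFN-4a, 0.27, 0.33 and 0.39 with anti-CD3, -0.43, -0.49 and -0.40 with PBS and IFN-4a, and -0.21, -0.15 and -0.23 with PBS. It rose 1.44-fold (log2 0.53, SE 0.055, adjusted p = 3.67e-06), without overlap between anti-CD3 and PBS arrays. Mcm5 read 0.16, 0.19 and 0.082 with anti-CD3 and IFN-4a, 0.16, 0.32 and 0.30 with anti-CD3, -0.19, -0.37 and -0.22 with PBS and IFN-4a, and -0.082, -0.17 and -0.21 with PBS, and rose by 0.41 (adjusted p = 0.000208). Mcm7 went the other way. Its values were -0.21, -0.18 and -0.13 with anti-CD3 and IFN-4a, -0.13, -0.13 and -0.090 with anti-CD3, 0.16, 0.11 and 0.090 with PBS and IFN-4a, and 0.27, 0.30 and 0.23 with PBS, a change of -0.38 (adjusted p = 2.7e-05). Mcm3 at 0.15, Mcm4 at -0.14 and Mcm6 at -0.021 were not called.

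None of the 6 genes for helicase activation was called higher, where 13.8% of all genes were. Gins4 read -0.28, -0.070 and -0.21 with anti-CD3 and IFN-4a, -0.15, -0.14 and -0.056 with anti-CD3, 0.056, 0.15 and 0.15 with PBS and IFN-4a, and 0.23, 0.32 and 0.099 with PBS. Gins3 read -0.33, -0.23 and -0.18 with anti-CD3 and IFN-4a, -0.081, -0.23 and -0.29 with anti-CD3, 0.081, 0.40 and 0.26 with PBS and IFN-4a, and 0.16, 0.15 and 0.086 with PBS. Both GINS subunit genes fell, by nearly equal amounts, with log2 changes of -0.33 (adjusted p = 0.00189) and -0.33 (adjusted p = 0.0055). Gins1 at 0.070, Gins2 at 0.042, Cdc45 at -0.011 and Mcm10 at -0.072, the gene of a factor that helps to start the helicase, were not called. All 4 of these were among the genes classed as below 8 before centring.

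None of the 4 genes of polymerase alpha and primase was called, where 31.8% of all genes were. Pola1, the catalytic subunit gene, read 0.15, -0.15 and 0.0044 with anti-CD3 and IFN-4a, 0.32, 0.21 and 0.19 with anti-CD3, -0.068, -0.24 and -0.31 with PBS and IFN-4a, and -0.0044, -0.014 and 0.14 with PBS, a difference of 0.20 (95% interval 0.017 to 0.38, adjusted p = 0.0955). Prim1, the small primase subunit gene, read -0.0089, -0.18 and 0.0089 with anti-CD3 and IFN-4a, 0.018, 0.23 and 0.15 with anti-CD3, -0.022, -0.11 and -0.21 with PBS and IFN-4a, and 0.097, -0.017 and 0.018 with PBS. Its difference was 0.10, that of Pola2, an accessory subunit gene, -0.10, and that of Prim2, the large primase subunit gene, -0.070.

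Polymerases delta and epsilon held the largest increases and also decreases of their own catalytic subunits. Pold2, the gene of a small subunit of polymerase delta, read 0.39, 0.47 and 0.41 with anti-CD3 and IFN-4a, 0.47, 0.62 and 0.44 with anti-CD3, -0.69, -0.78 and -0.66 with PBS and IFN-4a, and -0.46, -0.54 and -0.39 with PBS. It averaged 0.51 ± 0.096 with anti-CD3 and -0.47 ± 0.076 with PBS (SD, n = 3 each) and rose 1.97-fold (log2 0.98, SE 0.064, adjusted p = 3.37e-08). Pold1, the catalytic subunit gene of the same enzyme, read -0.0087, 0.0087 and -0.0094 with anti-CD3 and IFN-4a, -0.016, 0.073 and 0.16 with anti-CD3, -0.13, -0.042 and -0.020 with PBS and IFN-4a, and 0.34, 0.39 and 0.36 with PBS. Only the 3 arrays of PBS alone were high, and anti-CD3 lowered it by a log2 change of -0.29 (adjusted p = 0.000821). Pole2, the gene of a small subunit of polymerase epsilon, read 0.0038, -0.0038 and 0.18 with anti-CD3 and IFN-4a, 0.19, 0.23 and 0.33 with anti-CD3, 0.039, -0.024 and -0.12 with PBS and IFN-4a, and -0.79, -0.58 and -0.68 with PBS. Here only PBS alone was low. Pole2 rose 1.91-fold (log2 0.93, SE 0.073, adjusted p = 2.03e-07). Pole, the catalytic subunit gene of polymerase epsilon, read -0.11, 0.054 and 0.0033 with anti-CD3 and IFN-4a, -0.026, 0.0040 and -0.028 with anti-CD3, -0.012, 0.020 and -0.10 with PBS and IFN-4a, and 0.14, 0.14 and 0.17 with PBS. Its change of -0.17 (adjusted p = 0.0339) lost its call under quantile normalization and when any array of anti-CD3 alone or PBS alone was left out, with adjusted p up to 0.142. Pold3, another delta subunit gene, was not called at -0.020.

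**Figure D2:**
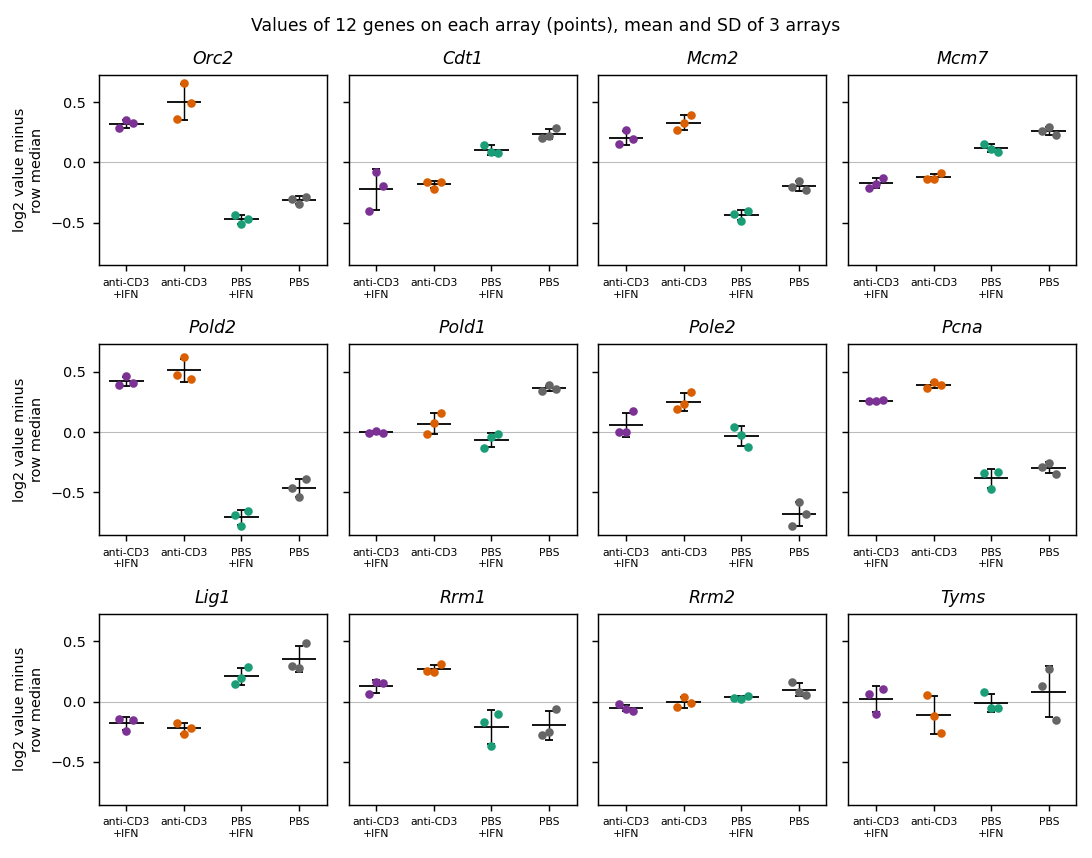
Log2 value minus row median (vertical axis) of 12 genes on each array, with points for arrays, a bar for the mean and whiskers for the SD of 3 arrays, in the 4 groups (horizontal axis). Pold2, Orc2, Pcna and Mcm2 are high on all 6 anti-CD3 arrays, Pole2 is low and Pold1 high only with PBS alone, and Tyms overlaps between all groups.

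Pcna, the clamp gene, was among the clearest increases. It read 0.26, 0.26 and 0.26 with anti-CD3 and IFN-4a, 0.36, 0.41 and 0.39 with anti-CD3, -0.34, -0.48 and -0.34 with PBS and IFN-4a, and -0.29, -0.26 and -0.35 with PBS. The means were 0.39 ± 0.025 with anti-CD3 and -0.30 ± 0.047 with PBS (SD, n = 3 each), a 1.61-fold rise (log2 0.69, adjusted p = 2.06e-07). The loader that opens the clamp was mixed. Rfc1, its large subunit gene, read 0.097, 0.24 and 0.082 with anti-CD3 and IFN-4a, 0.17, 0.23 and 0.16 with anti-CD3, -0.21, -0.34 and -0.26 with PBS and IFN-4a, and -0.17, -0.082 and -0.084 with PBS, and rose by 0.30 (adjusted p = 0.00111). Rfc2, a small subunit gene, fell with a log2 change of -0.27 (adjusted p = 0.00848), and the small subunit genes Rfc3 at 0.026 and Rfc5 at 0.049 were not called. The row shared by Rfc4 and Eif4a2 differed by 0.21 between anti-CD3 and PBS and was not assigned to either gene.

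Rpa1, the largest subunit gene of the protein that coats single-stranded DNA, read -0.31, -0.21 and -0.28 with anti-CD3 and IFN-4a, -0.10, -0.098 and 0.084 with anti-CD3, 0.097, -0.035 and 0.030 with PBS and IFN-4a, and 0.30, 0.43 and 0.28 with PBS. It fell with a log2 change of -0.37 (adjusted p = 0.000511), and its 2 rows differed in size, at -0.49 and -0.25. Rpa3, the smallest subunit gene, read -0.020, -0.11 and -0.022 with anti-CD3 and IFN-4a, -0.014, 0.17 and -0.017 with anti-CD3, 0.028, 0.083 and -0.058 with PBS and IFN-4a, and 0.011, -0.048 and -0.032 with PBS. Neither it, at 0.070, nor Rpa2, at -0.058, was called. The genes that finish lagging strands went opposite ways. Lig1, the DNA ligase gene that seals the fragments, read -0.15, -0.25 and -0.16 with anti-CD3 and IFN-4a, -0.18, -0.27 and -0.22 with anti-CD3, 0.15, 0.19 and 0.29 with PBS and IFN-4a, and 0.29, 0.28 and 0.49 with PBS. Its change of -0.58 was the largest decrease among the 43 genes (1.49-fold, SE 0.066, adjusted p = 8.11e-06). Fen1, the flap nuclease gene, read 0.012, 0.17 and 0.063 with anti-CD3 and IFN-4a, 0.073, 0.15 and 0.18 with anti-CD3, -0.12, -0.14 and -0.059 with PBS and IFN-4a, and -0.069, -0.061 and -0.16 with PBS, and rose by 0.23 (adjusted p = 0.0069).

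Of the 4 genes for deoxynucleotide supply, 2 rose, where 13.8% of all genes did. Rrm1, the large subunit gene of ribonucleotide reductase, read 0.062, 0.16 and 0.16 with anti-CD3 and IFN-4a, 0.25, 0.25 and 0.31 with anti-CD3, -0.17, -0.37 and -0.10 with PBS and IFN-4a, and -0.28, -0.26 and -0.062 with PBS, a rise of 0.47 (SE 0.076, adjusted p = 0.00022). Rrm2, the partner subunit gene whose expression is tied to S phase, read -0.023, -0.063 and -0.078 with anti-CD3 and IFN-4a, -0.048, 0.040 and -0.010 with anti-CD3, 0.031, 0.025 and 0.047 with PBS and IFN-4a, and 0.16, 0.077 and 0.058 with PBS. Its anti-CD3 arrays lay below its PBS arrays, with a difference of -0.11 that was not called (95% interval -0.21 to 0.0040, adjusted p = 0.145). The enzyme's subunits thus differed in their calls, and the difference between the genes was not tested. Tyms, the thymidylate synthase gene, read 0.059, -0.11 and 0.11 with anti-CD3 and IFN-4a, 0.051, -0.12 and -0.26 with anti-CD3, 0.078, -0.052 and -0.051 with PBS and IFN-4a, and 0.13, 0.27 and -0.15 with PBS, with a difference of -0.19 (95% interval -0.42 to 0.033). Its arrays overlapped between all groups, and without the third PBS array it was called, at -0.31 (adjusted p = 0.0257). Tk1, the thymidine salvage kinase gene, read 0.16, -0.0096 and 0.075 with anti-CD3 and IFN-4a, 0.14, 0.094 and -0.093 with anti-CD3, -0.021, 0.083 and 0.0096 with PBS and IFN-4a, and -0.17, -0.27 and -0.077 with PBS. Its rise of 0.22 (adjusted p = 0.0362) lost its call with only those 2 groups in the fit and without the first or second array of either, with adjusted p up to 0.147. Without 1 array of PBS with IFN-4a, Orc3 (the second left out, adjusted p = 0.0424) and Mcm3 (the third left out, adjusted p = 0.0335) were also called higher, with changes close to those above. For the 21 genes of the machinery not called in this comparison, every 95% interval lay between -0.418 and 0.381.

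The comparison of anti-CD3 with PBS in the presence of IFN-4a asked whether the response persisted alongside interferon. Pold2, Orc2, Pcna, Mcm2 and Orc6 rose again and Lig1, Cdt1, Mcm7 and Rpa1 fell again, while Pole2 was not called at 0.095 (adjusted p = 0.424). Of the 43 genes, 10 rose and 8 fell, 41.9%, against 27.7% of all genes (12.8% higher and 14.9% lower). Among genes at 8 or above before centring, 60% of machinery genes and 63.8% of all genes were called. The shares were 16.7% of machinery genes below 8 and 12.5% of the other genes, which were below 8 or could not be classed. Calls in the same direction in both comparisons were made for 9 raised genes and 6 lowered genes, and none was called in opposite directions. The comparisons use different arrays but share the estimate of spread, which came from all 12 arrays. The share of all genes called in the same direction in both was not counted, so these counts have no background beside them. Non-overlapping arrays were seen for 12 genes on the higher and 12 on the lower side, against 38.3% of all genes (15.9% higher and 22.4% lower). Pold2 rose 2.19-fold (log2 1.13, SE 0.064, adjusted p = 8.08e-09) and was the only one of the 43 past 2-fold. Of all 22180 genes, 648 changed by at least 2-fold. Orc2 rose by 0.80, Pcna by 0.64 and Mcm2 by 0.64, with adjusted p of 5.2e-07, 4.57e-07 and 6.17e-07. Rfc1 rose by 0.41, Mcm5 by 0.40 and Rrm1 by 0.34.

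Among decreases with IFN-4a present, Gins3 changed by -0.49, Lig1 by -0.39, Cdt1 by -0.33, Gins4 by -0.30, Rpa1 by -0.30 and Mcm7 by -0.29. The Rpa1 call rests on 1 of its 2 rows, since it ended when the other row stood for the gene (log2 -0.11, adjusted p = 0.407). Mcm4 at -0.19 and Prim2 at -0.24 fell and Gins1 at 0.16 rose only in this comparison. The difference between the comparisons, tested as the interaction, was called for none of these 3. Calls of Orc6 (0.29), Fen1 (0.19), Gins1 and Mcm4 were lost when any of several single arrays was left out, with adjusted p up to 0.202, 0.117, 0.156 and 0.124. These arrays were, of anti-CD3 with IFN-4a, the second and the third for all 4 genes and also the first for Gins1 and Mcm4, and, of PBS with IFN-4a, the third for Orc6 and Gins1, the first for Fen1 and Mcm4, and the second for Fen1, Gins1 and Mcm4. Orc6 lost it also without the second or the third array of anti-CD3 alone or of PBS alone. The change of Orc6 was 0.16 (adjusted p = 0.202) without the third array of PBS with IFN-4a. Prim2 lost its call without that array (adjusted p = 0.0522). Pola1 was called higher without the second array of anti-CD3 with IFN-4a or the first of PBS with IFN-4a (0.29 and 0.28, adjusted p = 0.0233 and 0.033). Orc5 was called lower without the third anti-CD3 array or the second of PBS with IFN-4a (-0.17 and -0.21, adjusted p = 0.0499 and 0.0274).

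**Figure D3:**
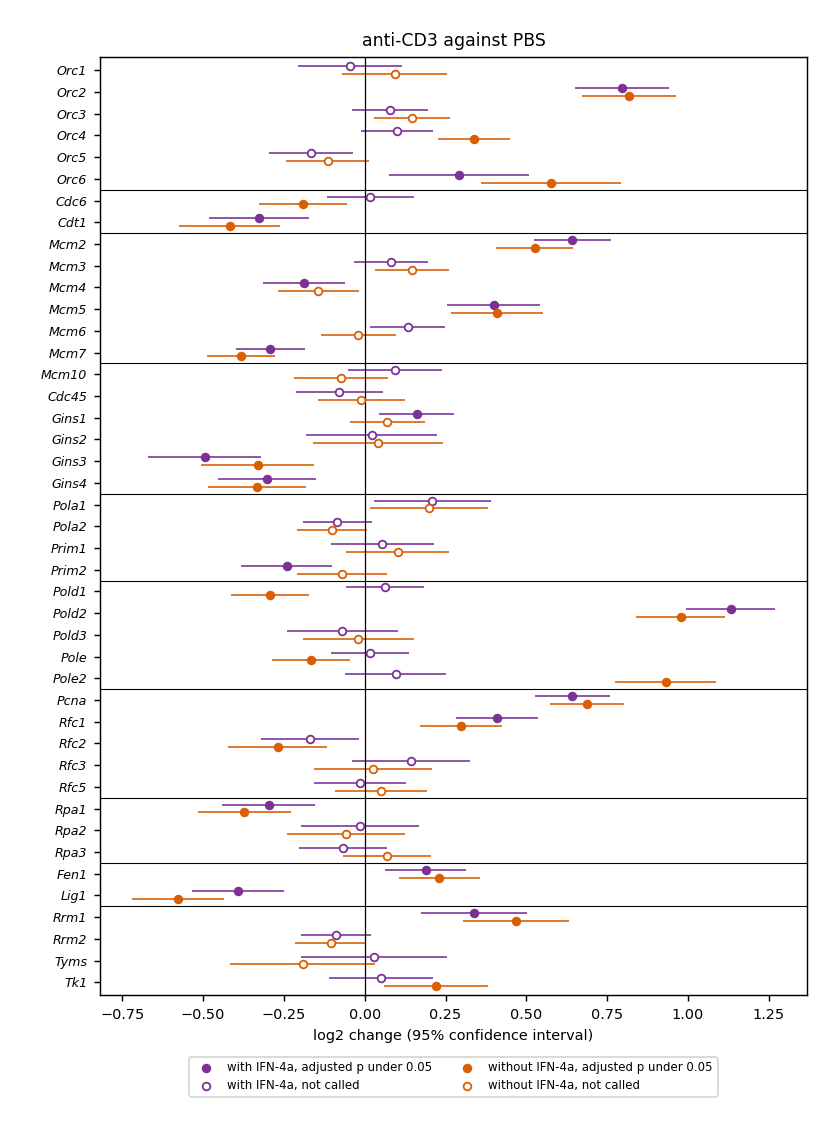
Log2 change of anti-CD3 against PBS (horizontal axis, 95% confidence intervals) for the 43 genes, in the presence of IFN-4a (purple) and in its absence (orange), with filled points for adjusted p under 0.05. Pole2 separates, at 0.095 with IFN-4a and 0.93 without it, while Pold2, Orc2 and Pcna lie far to the right in both.

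The comparison of IFN-4a with none in PBS-treated cells asked what interferon does to the machinery in resting cells. Pole2 rose and 5 genes fell slightly. Pole2 rose 1.57-fold (log2 0.65, SE 0.073, adjusted p = 4.76e-05), with all 3 IFN-4a arrays above all 3 PBS arrays. Pold1 fell with a log2 change of -0.43 (SE 0.056, adjusted p = 0.000179), Rpa1 of -0.30 (adjusted p = 0.0091), Pold2 of -0.24 (adjusted p = 0.0225), Mcm2 of -0.24 (adjusted p = 0.0114) and Pole of -0.18 (adjusted p = 0.048). These calls made up 14% of the 43 genes, against 12.6% of all genes (4.25% higher and 8.37% lower). The share of called genes was thus near that of all genes. Arrays did not overlap in 4 genes on the higher and 15 on the lower side, against 30.8% of all genes (12.1% higher and 18.7% lower). Without the second array of PBS with IFN-4a, 3 genes remained called. Mcm2 (adjusted p = 0.056), Pold2 and Pole lost theirs. Pold2 also lost its call without the first array of either group or the third PBS array (adjusted p up to 0.0986 without single arrays), and under quantile normalization (log2 -0.16, adjusted p = 0.103). Pole lost its call without any of the 6 arrays of these groups. It also lost it without any array of anti-CD3 alone or the third of anti-CD3 with IFN-4a. Quantile normalization, array weights, the replicate block and a fit of these groups alone ended it too (adjusted p up to 0.146). The rows averaged for Pole differed, at -0.31 and -0.052. Without 1 array, Pola1 was called lower (-0.32 without the first array of PBS with IFN-4a, adjusted p = 0.0427, and also without the second array of anti-CD3 with IFN-4a) and Pold3 higher, at 0.24 (adjusted p = 0.0448), with the second PBS array left out. The 37 genes not called had 95% intervals between -0.429 and 0.359.

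In cells given anti-CD3, IFN-4a changed 1 of the 43 genes by this rule, 2.33%, where 3.48% of all genes were called (2.02% higher and 1.46% lower). Prim2, the large primase subunit gene, read -0.26, -0.26 and -0.22 with anti-CD3 and IFN-4a, -0.098, 0.011 and 0.15 with anti-CD3, -0.011, -0.070 and 0.064 with PBS and IFN-4a, and 0.060, 0.14 and 0.071 with PBS. It fell with a log2 change of -0.27 (SE 0.065, adjusted p = 0.0383), and the call was lost without any of 8 of the 12 arrays taken singly and with only these 2 groups in the fit (adjusted p up to 0.159). The calls that remained were those without the first anti-CD3 array, the second or the third array of PBS with IFN-4a, or the second PBS array. At an unadjusted p under 0.05, 13 of the 43 genes differed, where 15.1% of all genes did. Mcm10 was called higher, at 0.31 (adjusted p = 0.0405), with the first anti-CD3 array left out. Arrays did not overlap between the groups in 19 of the 43, 14 lower and 5 higher, where 21.1% of all genes showed no overlap (12.1% lower and 9.02% higher). The median change was -0.058 over the machinery and -0.0024 over all genes. It was -0.055 over all genes when only rows at 8 or above before centring were used. The 42 genes not called had 95% intervals between -0.419 and 0.475.

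**Figure D4:**
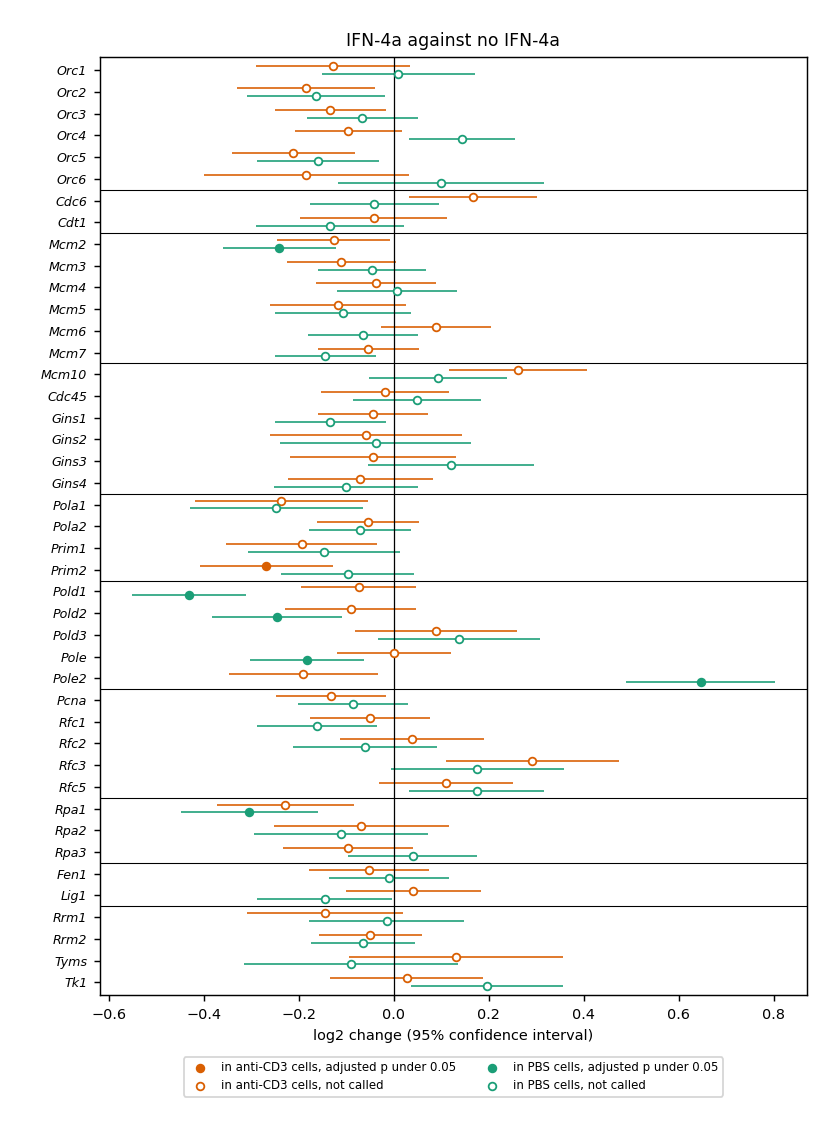
Log2 change of IFN-4a against no IFN-4a (horizontal axis, 95% confidence intervals) for the 43 genes in anti-CD3 cells (orange) and in PBS cells (green), with filled points for adjusted p under 0.05. Pole2 lies at -0.19 in anti-CD3 cells and 0.65 in PBS cells, and Pold1 has the lowest value, -0.43 in PBS cells.

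The interaction, the IFN-4a change in anti-CD3 cells minus that in PBS cells, was called for Pole2 alone, 1 of 43 genes, where 0.942% of all genes were called. It was -0.84 (SE 0.10, 95% interval -1.06 to -0.62, adjusted p = 0.000698). Anti-CD3 alone and IFN-4a alone each lifted Pole2 above PBS, and cells given both averaged 0.059 ± 0.1, against 0.25 ± 0.073 with anti-CD3 alone and -0.036 ± 0.082 with IFN-4a alone (SD, n = 3 each). Pold1 had the opposite pattern at 0.36 and just missed the threshold (adjusted p = 0.0563), and it was called without the third anti-CD3 array (0.40, adjusted p = 0.037). At an unadjusted p under 0.05, 5 of the 43 interactions differed from 0, where 11% of all genes did, a like share.

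Several of these genes overlap another gene on the chromosome in the RefSeq annotation of GRCm38.p6, and the strand that each row measures is stated in no source used here. Of the 43 genes 24 overlapped no other annotated gene, and 12 overlapped a measured protein-coding gene. Klhdc1, which overlaps Pole2, differed by 0.37 with anti-CD3 alone (adjusted p = 0.0082) and by 0.58 with IFN-4a in PBS cells (adjusted p = 0.00121), with an interaction of -0.67 (adjusted p = 0.0352). These are the directions seen for Pole2. With IFN-4a present, anti-CD3 changed Klhdc1 by -0.30 (adjusted p = 0.0333), where Pole2 was not called. Aebp1, which overlaps Pold2, rose by 0.92 with anti-CD3 alone (adjusted p = 1.66e-06). Ap4m1, which overlaps Mcm7, changed by -0.45 and Smyd4, which overlaps Rpa1, by -0.77 in the same comparison. Zswim9, which overlaps Lig1, was not called at -0.11, nor was Tmem258, which overlaps Fen1, at -0.061. Other partners went against the machinery gene or moved without it in this comparison. Afmid, which overlaps Tk1, changed by -0.61 and Acvr2a, which overlaps Orc4, by -0.22, while Tk1 and Orc4 rose. Gse1 changed by -0.44 and Prpf38a by 0.67, while Gins2 and Orc1, which they overlap, were not called. Whether shared sequence plays a part in these pairs was not tested. Orc2, Orc6, Cdt1, Mcm2, Mcm5, Gins3, Gins4, Pcna, Rfc1, Rfc2 and Rrm1 overlapped no protein-coding gene.

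Genes around the machinery gave the setting in which it moved, in the comparison of anti-CD3 with PBS without IFN-4a. Of all genes, 13.8% were called higher and 18% lower there. De novo purine and pyrimidine synthesis, which makes the bases for RNA and DNA, rose most widely, with 16 of 18 measured genes higher and 1 lower and a median of 0.73. Mthfd1 rose 5.1-fold, Ctps 4.88-fold and Mthfd2 4.46-fold, enzymes of folate metabolism and, for Ctps, of CTP synthesis. Other genes of deoxynucleotide metabolism split, with 6 of 12 higher and 4 lower (median 0.16), among them Shmt1, a folate enzyme gene, at 3.42, Dctd, a deoxycytidylate deaminase gene, at 1.78, and Nme1, a nucleoside diphosphate kinase gene, at 1.61. Dck, the deoxycytidine salvage kinase gene, fell with a log2 change of -1.21. Other fork and checkpoint genes had 13 of 29 higher and 7 lower (median 0.056). Top1, which relaxes DNA ahead of forks, rose by 1.08, and Tipin and Hus1, checkpoint genes, by 0.82 and 0.73. Of the genes for chromatin at forks 6 of 13 rose and 3 fell (median 0.12), with Cdca7 at 2.58 far ahead of the histone chaperone gene Nasp at 0.68 and of Rbbp7 at 0.64.

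Counts of the following lists also stand beside 13.8% of all genes higher and 18% lower. Regulators of licensing fell or were not called. Of 12 measured, none rose and 4 fell (median -0.077), and Gmnn, the geminin gene whose protein binds and blocks Cdt1, changed by -0.56, Fbxo5 by -0.54 and Dbf4, the activator gene of a replication kinase, by -0.28. Of 17 E2F and pocket protein genes 5 rose and 8 fell (median -0.18). Tfdp1, which encodes the DNA-binding partner of E2F proteins, rose by 1.59 and E2f6 by 0.99, while Rbl2, a pocket protein gene of quiescent cells, changed by -0.89. E2f1 was not called at -0.039 (adjusted p = 0.756). Among 14 cyclin and kinase genes of entry into S phase, 5 rose and 5 fell (median -0.068): Cdkn1a, an inhibitor gene, rose by 2.71, Ccnd2 by 1.78 and Cdk6 by 1.54. Of 19 mitosis genes none rose and 2 fell (median -0.092), Ndc80 by -0.82 and Birc5 by -0.34. Mki67 was not called at -0.24 (adjusted p = 0.198).

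**Figure D5:**
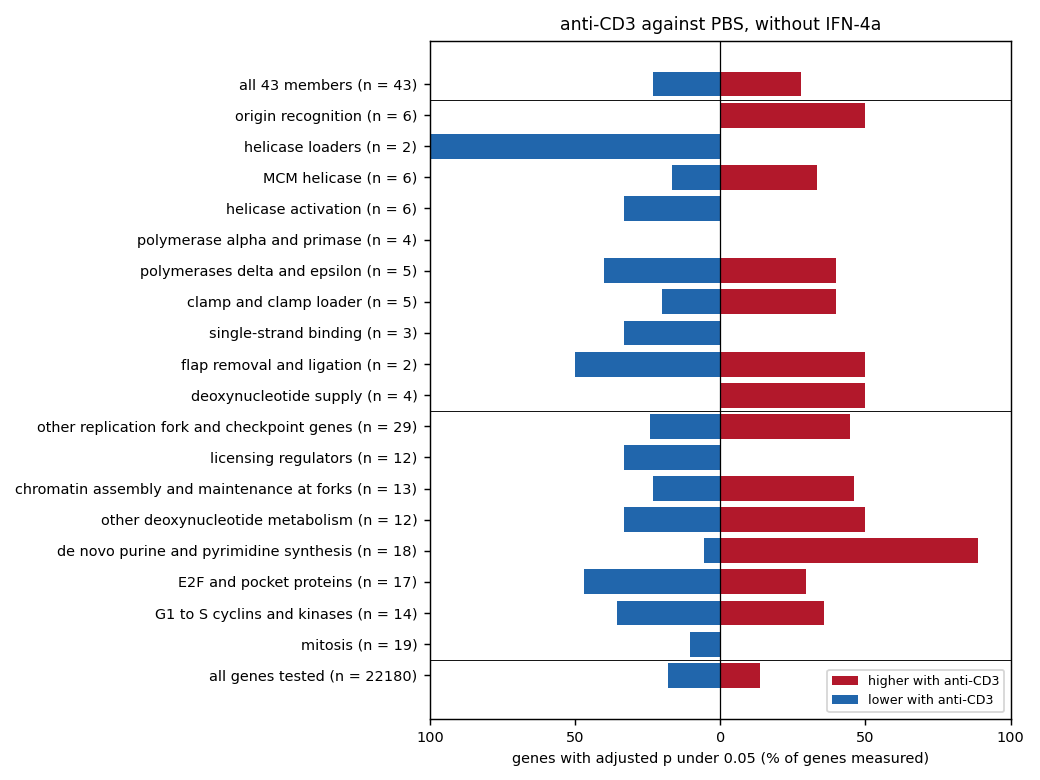
Share of measured genes called higher (right, red) or lower (left, blue) with anti-CD3 against PBS, without IFN-4a (horizontal axis, percent of genes measured), for the 43 genes together, their 10 functional groups, 8 surrounding gene lists and all 22180 genes. Purine and pyrimidine synthesis reaches 16 of 18 genes higher, and the functional group of origin recognition reaches 3 of 6.

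Stimulation itself was evident from other genes. Myc rose by 2.75 (adjusted p = 1.31e-11) and Cd69, an early activation marker, by 2.02 with anti-CD3 alone, and Ifit1, an antiviral gene, rose by 5.16 with IFN-4a in PBS cells. The mean over the 5 markers of CD8+ T cells lay between -0.159 and -0.093 on the arrays of anti-CD3 alone and between 0.0918 and 0.125 on those of PBS alone, with 3 of 5 called, lower. Of these markers, Cd8a at 0.078 and Cd3e at 0.015 were not called with anti-CD3 alone, while Cd8b1 changed by -0.34. The largest fall among the 5 was -0.64, and their median change was -0.26. The mean over 7 measured B cell markers lay between -0.147 and -0.0185 with anti-CD3 alone and between -0.00648 and 0.198 with PBS alone, with 1 of 7 called, lower. The 8 myeloid markers had array means between -0.0841 and 0.0781 with anti-CD3 and between -0.0473 and 0.0392 with PBS, with 1 of 8 called, higher. Among erythroid and platelet markers the array means lay between 0.103 and 0.155 with anti-CD3 and between -0.246 and -0.199 with PBS. There 1 of 6 was called higher and 1 lower, the higher one being Tfrc, the transferrin receptor gene, at 2.34. The 5 NK markers had means of 0.0944 to 0.145 with anti-CD3 and -0.153 to -0.104 with PBS (1 higher, 1 lower), and the 4 CD4 markers -0.0265 to 0.0977 with anti-CD3 and -0.192 to -0.111 with PBS (1 higher). The median change was -0.018 over the NK markers and -0.055 over the CD4 markers, and the highest were 1.59 and 1.04. The 8 granulocyte markers had means of -0.118 to 0.00946 with anti-CD3 and 0.000275 to 0.0297 with PBS (1 lower). The part of other cells in the results above was not tested.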

How the data were processed

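RNA of 12 samples was hybridised to Affymetrix arrays, 1 array per sample, per the labels' protocols. The deposited values, 33793 rows, are on a log scale taken as log2, because no source used here states the base, and the authors' values were centred on each row's median (largest absolute row median 5e-07). No source used here states the background correction or normalization. Symbols came from GEO's platform annotation: 23521 rows had 1 symbol, 1814 several and 8458 none. Rows of the same symbol were averaged, which gave 22180 genes and combined 2 rows for Rpa1, Rpa3, Fen1, Pole and Rrm2. A model of the 4 group means over all 12 arrays was fitted with limma 3.58.1 in R 4.3.3, with 5 contrasts and Benjamini-Hochberg adjustment over all genes. The fit was tested on simulated data. The number of arrays limits the precision.

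The genes and lists were chosen with earlier results of these data known. Every machinery gene was named. Values on each array were given for the 2 genes of each functional group with the largest change with anti-CD3 alone, for all 4 deoxynucleotide genes and for every gene called in an IFN-4a comparison. From other lists, the 3 called genes with the largest change were named. The array values of Mcm7, and the genes Dck, E2f1, Mki67, Tfrc and those overlapping a machinery gene, were chosen after their values were seen. Alternatives were quantile normalization, array weights, a fit of the compared groups alone and a replicate block. Others were the row per gene with the highest mean centred value, bright genes alone, a stricter threshold and leaving out each array. On centred values, that mean does not tell which row was brighter. Scripts for tables and plots used Python 3.11.15, pandas 2.3.3 and matplotlib 3.10.9.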

Additional observations from a re-analysis of the deposited data

Results flagged for a closer look

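The IFN-4a change of Pole2, a subunit gene of polymerase epsilon, differed between anti-CD3 and PBS cells by a tested interaction of -0.837 on the log2 scale (SE 0.10, adjusted p = 0.000698). It was -0.19 in anti-CD3 cells (adjusted p = 0.216) and 0.65 in PBS cells (adjusted p = 4.76e-05). The interaction of Klhdc1, which overlaps Pole2 on the chromosome, was -0.67 (adjusted p = 0.0352). The part of shared sequence was not tested.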

How the results depend on the processing

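No gene of the machinery reversed a called direction under any alternative. With anti-CD3 alone, the count of called genes stayed between 17 (of 25 bright genes) and 23 under every alternative, and 19 of the 22 calls were made in every alternative that tested the gene, the stricter threshold aside; Orc4, Pold1, Fen1 and Lig1, below 8, were not among the bright genes. The exceptions were Cdc6, Pole and Tk1. With IFN-4a present, 12 of 18 calls held on the same terms (Lig1 not among the bright genes) and the count lay between 13 and 19. For IFN-4a in PBS cells, 6 genes were called, 3 at an adjusted p under 0.01 and 3 to 7 when single arrays were left out. For IFN-4a in anti-CD3 cells, 1 gene was called, against 2 after quantile normalization, 3 with array weights, 3 with the replicate block, 4 among bright genes, 0 with the 2 groups alone, 0 at an adjusted p under 0.01 and 0 to 2 without single arrays. The interaction was called for 1 gene, for 2 with array weights and for 1 to 2 without single arrays, the second appearing without the third anti-CD3 array. Pole2 was called throughout, with adjusted p up to 0.00375. The cause of these differences was not tested. Deviations of samples sharing a replicate number correlated between -0.0718 and 0.267 (18 pairs), with a median of 0.0674 against -0.0418 for samples with different numbers, and 9 of 12 arrays correlated best with an array of their own number. That is a hint of pairing from the data, but not every pair exceeded 0.1 and the labels name no shared source, so the samples were not treated as paired. With the replicate block 22 genes were called for anti-CD3 alone, 17 with IFN-4a present, 5 for IFN-4a in PBS cells and 1 for the interaction; with IFN-4a present Orc6 (adjusted p = 0.0506) and Gins1 (adjusted p = 0.0609) were not called under it. For Pole, the row with the highest mean centred value gave -0.31 for IFN-4a in PBS cells, and its other row gave -0.052. Centring removed the levels, so weak signal can be judged only by the limit of 8.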

Other observations

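Samhd1, the gene of an enzyme that degrades deoxynucleotides, responded to both agents. It rose by 0.88 with anti-CD3 alone (adjusted p = 1.41e-08) and by 1.31 with IFN-4a in PBS cells (adjusted p = 5.49e-10), and its interaction was -0.97. Of the 18 measured genes of purine and pyrimidine synthesis, 1 rose and 8 fell with IFN-4a in PBS cells, where 4.25% of all genes rose and 8.37% fell. Samhd1 was chosen after its values were seen.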
